A study of Mus musculus with 24 samples.

Results

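Cortex cultures labelled 13 d were compared between 3% O2 and 21% O2, with 3 arrays per oxygen level, which are 6 of the 24 arrays of the series. The arrays were chosen by their labels, and the 23410 of 28856 probe sets that carry a gene symbol were tested. Both groups were primary neural stem cell cultures of fetal cortex from C57Bl/6 mice at embryonic day 14, grown in expansion medium and given fresh medium several times a week. The low-oxygen group was held in a nitrogen and carbon dioxide mixture with 3% O2 and the other group at 21% O2. The labels name no transgene, drug or selected clone in either group. The other 18 arrays held cortex labelled 48 h and midbrain labelled 48 h and 13 d from the same strain and age, at the same oxygen levels. The labels leave unstated whether the 3 arrays of a group were separate cultures or litters, so the spread behind the p-values may be technical.

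Cells sense oxygen through prolyl hydroxylases, which mark the alpha subunits of the hypoxia-inducible factor HIF for removal by the VHL ubiquitin ligase. In low oxygen the alpha subunit builds up, pairs with ARNT and binds DNA at sites with the core letters ACGTG or GCGTG. The genes it raises take up glucose, run glycolysis, export lactate, keep pyruvate out of mitochondria and call blood vessels. Fetal brain develops at oxygen levels below those of room air, and neural stem cells are often grown in low oxygen for that reason.

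The marker genes Tbr1 and En1 bore out the labelled region. Tbr1, a transcription factor of cortical projection neurons, lay at 11.44 ± 0.10 (log2, SD, n = 3) at 21% O2, against 6.86 ± 0.26 in cortex labelled 48 h and 6.12 ± 0.04 in midbrain 48 h. En1, a midbrain and hindbrain factor, lay at 6.95 ± 0.24, against 9.19 ± 0.28 in midbrain 48 h. The mean of 19 cortical projection neuron markers was 9.56 ± 0.05 at 21% O2 and 9.59 ± 0.04 at 3% O2. At 21% O2 it was 8.89 ± 0.01 in midbrain 48 h, 8.08 ± 0.06 in cortex labelled 48 h and 7.97 ± 0.03 in midbrain 13 d. Midbrain 48 h thus lay above cortex labelled 48 h, so this list does not order the groups by region. The mean of 20 neural stem and radial glia markers was 10.56 ± 0.02 at 21% O2 and 10.50 ± 0.04 at 3% O2. These cultures therefore held RNA of both neurons and progenitors. The culture time could not be checked in the same way, and the profiles leave it in doubt. At 21% O2 the group means correlated with midbrain 48 h at 0.974 (Pearson, across probe sets), with cortex labelled 48 h at 0.970 and with midbrain 13 d at 0.951, while cortex labelled 48 h correlated with midbrain 13 d at 0.990. The mean of 22 neuron markers was 11.01 ± 0.03 here and 11.63 ± 0.02 in midbrain 48 h, against 9.28 ± 0.13 in cortex labelled 48 h and 8.49 ± 0.05 in midbrain 13 d. Whether the times of the cortex arrays are exchanged in the labels was not settled, so both times are used as names, and every comparison with cortex labelled 48 h depends on them. Lists of other cell types were at unequal levels. At 21% O2 the mean of 21 microglia markers was 6.65 ± 0.01, of 18 endothelial markers 6.69 ± 0.04 and of 19 pericyte, fibroblast and meninges markers 6.71 ± 0.02, below the array medians of 7.35 to 7.42. The 15 astrocyte markers lay above those medians at 8.33 ± 0.01 and the 18 oligodendrocyte markers at 7.80 ± 0.02, although the astrocyte gene Gfap itself lay between 6.07 and 6.30. Both lists were higher in cortex labelled 48 h, at 9.15 ± 0.62 and 9.85 ± 0.66. In bulk RNA, fewer cells of a type and less RNA per cell cannot be told apart.

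**Figure D1:**
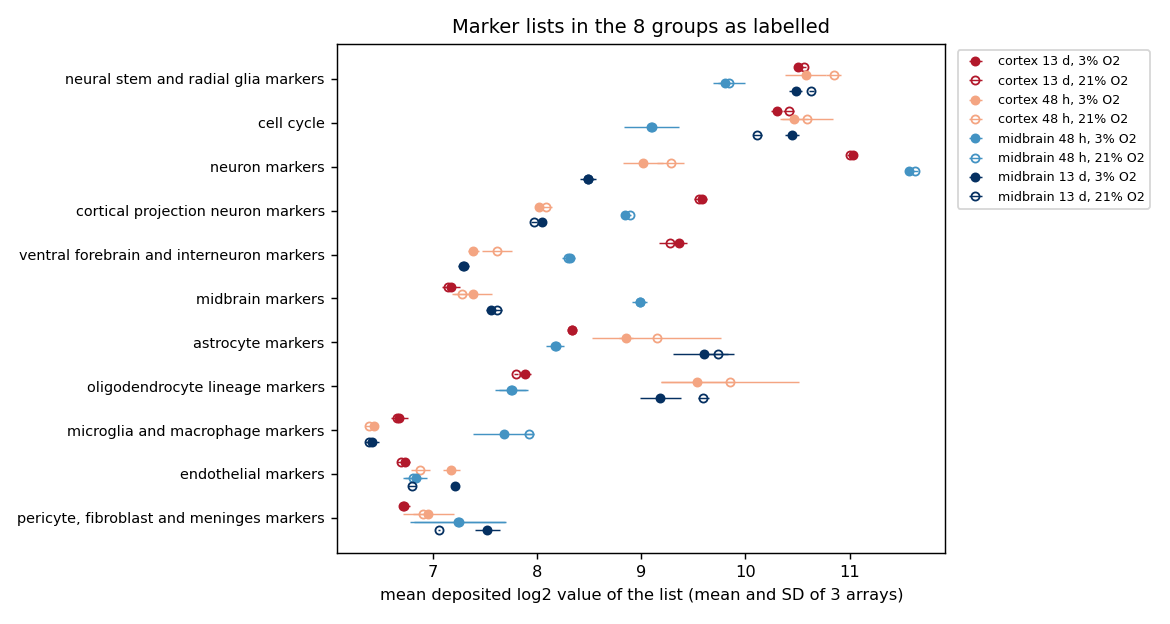
Mean deposited log2 value of 11 marker lists (horizontal axis) in the 8 groups, filled symbols for 3% O2 and open symbols for 21% O2, with the SD of 3 arrays as bars. Cortex labelled 13 d has the highest cortical projection neuron level (9.56 at 21% O2) and the lowest midbrain level (7.15), and its filled and open symbols lie close together in every list.

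Low oxygen raised many more transcripts than it lowered. In limma's fit of the 24 arrays, 142 of the 23410 probe sets passed an adjusted p of 0.05, which is 0.607% of those tested. Of these, 127 were higher at 3% O2 (0.543%) and 15 lower (0.0641%). The higher probe sets with 1 symbol stood for 100 genes, 35 of which rose by over 1 on the log2 scale, a doubling, and 5 by over 2. Rises ran from 0.20 to 4.32 and falls from -0.54 to -0.21. The median change of all tested probe sets was -0.011, with 43.6% of them positive. The 3 arrays at 3% O2 did not overlap the 3 at 21% O2 in any of the 142, as in 17.6% of all probe sets tested. At an unadjusted p under 0.05 there were 1692 probe sets. Of the higher probe sets, 14 carry several symbols, and 11 of these list Gapdh beside its near-identical copies, with changes of 0.20 to 0.22, so that they measure no single gene. The number of calls was lower with any 1 array left out, which also makes its group smaller, and the part of group size was not tested. It was 68 without 3% O2 replicate 2, 75 without 21% O2 replicate 3, 82 without 3% O2 replicate 3, 91 without 21% O2 replicate 2, 93 without 3% O2 replicate 1 and 110 without 21% O2 replicate 1. Of the 142 calls, 63 were kept in every one of 16 other ways of fitting the data that included the probe set, 62 of them rises. For 8 of the 63 that meant 15 fits, since they are too dim for one of them. No call changed sign in any fit.

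**Figure D2:**
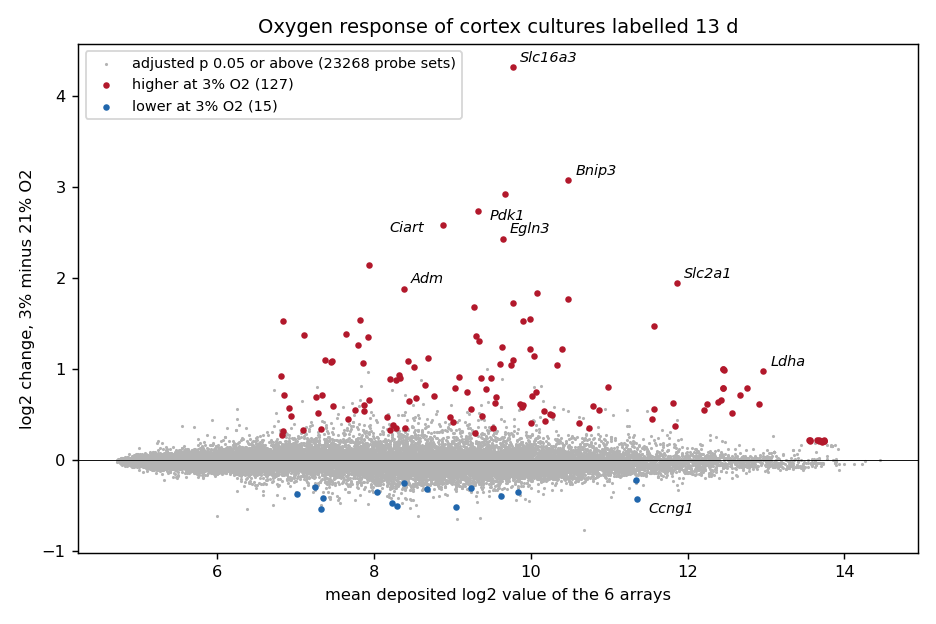
Log2 change at 3% against 21% O2 (vertical axis) by the mean deposited log2 value of the 6 arrays (horizontal axis), with 1 point for each of 23410 probe sets. The 127 rises in red reach 4.32 for Slc16a3, while the 15 falls in blue stay within -0.54, and the cluster of small rises at the right end holds the Gapdh probe sets.

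The largest change was that of the lactate exporter gene Slc16a3 (MCT4), which carries lactate out of glycolytic cells. Its deposited log2 values were 11.86, 11.99 and 11.94 at 3% O2 and 7.47, 7.71 and 7.64 at 21% O2. All 3 low-oxygen arrays lay far above the others, a rise of 4.32 ± 0.30 (log2, SE, 95% interval 3.69 to 4.95) or 20.0-fold, with an adjusted p of 2.33e-07. Bnip3, a receptor that directs mitochondria to autophagy, lay at 11.87, 12.12 and 12.06 at 3% O2 and at 8.77, 9.15 and 8.90 at 21% O2. The arrays were again well apart, and the rise was 3.08 ± 0.30, with 2.93 from its other probe set. Pdk1, a kinase that switches off pyruvate dehydrogenase, had values of 10.61, 10.77 and 10.72 against 7.90, 8.14 and 7.86 and rose by 2.74 ± 0.23. Ciart (CHRONO), a repressor within the circadian clock, had 10.27, 10.19 and 10.09 against 7.86, 7.53 and 7.38 and rose by 2.59 ± 0.24. Egln3, an oxygen-sensing prolyl hydroxylase that is itself a HIF target, had 10.81, 10.88 and 10.89 against 8.37, 8.45 and 8.45 and rose by 2.44 ± 0.21. Slc2a1, the widely expressed glucose transporter GLUT1, had 12.78, 12.89 and 12.85 against 11.07, 10.81 and 10.81 and rose by 1.95 ± 0.20. The 6 genes kept their calls in each of the 16 alternatives, and for all of them the lowest array at 3% O2 lay above the highest at 21% O2 by over 1.

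**Figure D3:**
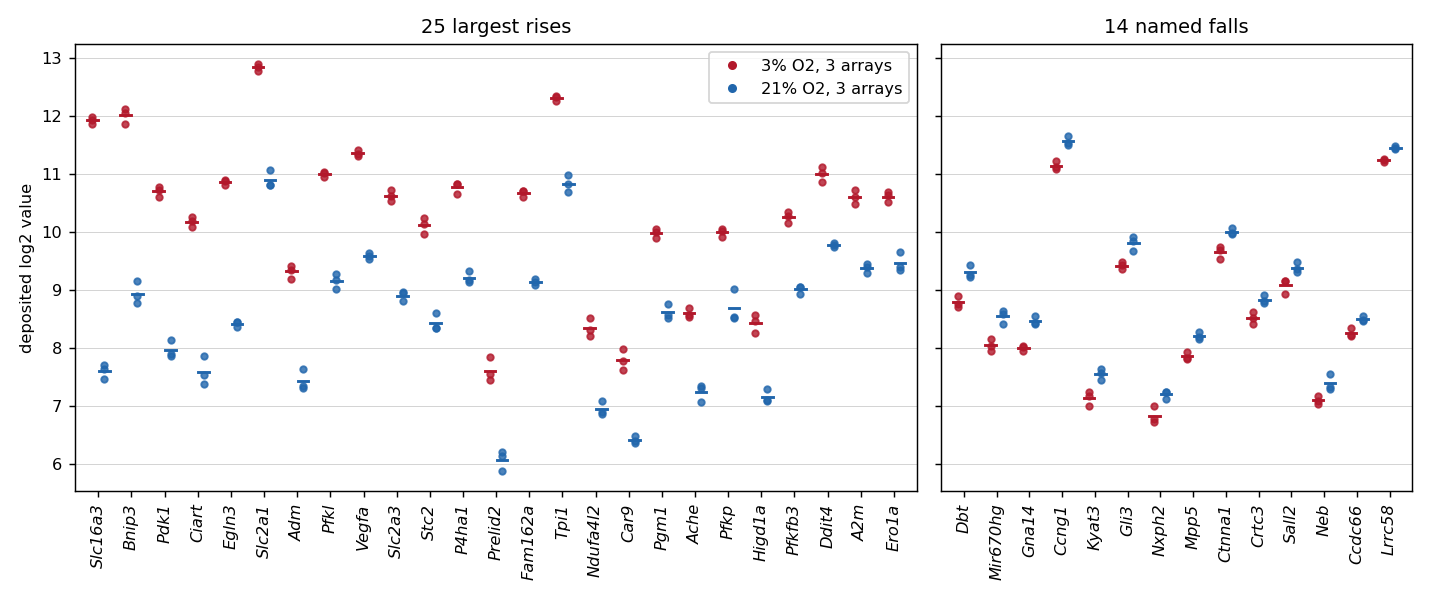
Deposited log2 value (vertical axis) of each array for the 25 largest rises and the 14 named falls, with 3% O2 in red and 21% O2 in blue and a bar at the mean of 3 arrays. The red and blue points of a gene never overlap, and the gaps of the rises, such as 11.86 against 7.71 for Slc16a3, are much wider than those of the falls, such as 11.22 against 11.51 for Ccng1.

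Promoter letters of these 6 genes, taken as the largest rises, are shown because the HIF core letters are known. Only promoters with ACGTG or GCGTG were eligible for printing. Where a gene had several listed, as Pdk1 with 2, the one with the most matches was taken. A match in each line therefore follows from the choice. Each line gives the 300 bases from 250 before to 50 after a RefSeq gene start on the mouse build GRCm38.p6, 5′ to 3′ on the gene's strand. Capitals mark ACGTG or GCGTG on either strand. The E-box that clock factors bind, CACGTG, holds the first of these cores on both strands.
Slc16a3 (chr11:120948817-120949116, plus strand): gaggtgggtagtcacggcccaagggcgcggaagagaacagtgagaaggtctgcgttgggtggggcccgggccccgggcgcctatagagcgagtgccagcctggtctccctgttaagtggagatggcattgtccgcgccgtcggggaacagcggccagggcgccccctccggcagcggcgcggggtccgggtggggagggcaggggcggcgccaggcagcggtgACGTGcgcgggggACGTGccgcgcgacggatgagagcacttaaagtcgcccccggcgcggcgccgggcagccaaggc
Bnip3 (chr7:138909457-138909756, minus strand): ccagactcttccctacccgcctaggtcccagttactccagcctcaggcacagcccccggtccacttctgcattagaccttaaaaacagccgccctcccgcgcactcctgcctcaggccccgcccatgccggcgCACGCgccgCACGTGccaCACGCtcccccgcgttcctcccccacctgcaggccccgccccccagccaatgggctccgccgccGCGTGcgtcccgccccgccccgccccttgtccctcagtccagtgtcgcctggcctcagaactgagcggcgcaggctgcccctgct
Pdk1 (chr2:71872974-71873273, plus strand): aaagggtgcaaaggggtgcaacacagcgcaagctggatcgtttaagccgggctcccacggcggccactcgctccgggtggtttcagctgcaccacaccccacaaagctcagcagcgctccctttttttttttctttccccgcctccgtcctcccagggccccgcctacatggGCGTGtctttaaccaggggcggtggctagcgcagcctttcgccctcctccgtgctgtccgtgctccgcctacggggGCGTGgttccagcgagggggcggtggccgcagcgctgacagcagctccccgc
Ciart (chr3:95882179-95882478, minus strand): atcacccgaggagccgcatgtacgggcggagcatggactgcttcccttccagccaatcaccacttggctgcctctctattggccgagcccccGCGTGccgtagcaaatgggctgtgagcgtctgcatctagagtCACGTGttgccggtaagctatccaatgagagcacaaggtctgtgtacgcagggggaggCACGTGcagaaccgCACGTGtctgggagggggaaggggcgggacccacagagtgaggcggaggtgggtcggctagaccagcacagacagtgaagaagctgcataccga
Egln3 (chr12:54203825-54204124, minus strand): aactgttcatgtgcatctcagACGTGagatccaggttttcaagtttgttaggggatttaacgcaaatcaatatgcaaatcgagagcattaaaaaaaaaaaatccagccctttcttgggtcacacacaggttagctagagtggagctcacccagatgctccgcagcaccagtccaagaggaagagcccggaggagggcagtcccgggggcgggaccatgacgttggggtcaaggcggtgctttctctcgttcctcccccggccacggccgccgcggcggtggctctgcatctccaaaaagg
Slc2a1 (chr4:119108495-119108794, plus strand): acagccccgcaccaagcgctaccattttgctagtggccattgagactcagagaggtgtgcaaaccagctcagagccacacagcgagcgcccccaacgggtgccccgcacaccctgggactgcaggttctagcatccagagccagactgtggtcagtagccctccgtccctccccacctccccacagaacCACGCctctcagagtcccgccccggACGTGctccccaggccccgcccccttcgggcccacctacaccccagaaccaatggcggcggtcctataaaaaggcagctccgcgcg

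Slc16a3 has a pair of ACGTG, the nearer one 14 bases before the start. Ciart has 6 ACGTG counted over both strands, which are 3 CACGTG, beside 1 GCGTG. Bnip3 has 5 matches, among them 1 CACGTG, and Egln3 has 1, at 229 bases before the start. Of the 25 largest rises, 21 have a promoter in the RefSeq table, and 20 of these hold ACGTG or GCGTG. The exception is Tpi1, whose window holds neither. Counted by gene in the same way, 55.3% of all genes tested and 84.4% of those that rose hold a core. Counted by promoter, 51.8% of 19116 promoters hold at least one of the 2 cores, against 76.5% of the 98 promoters of genes that rose and 60.0% of the 15 promoters of genes that fell. For ACGTG alone the shares are 21.6%, 46.9% and 13.3%, for GCGTG 40.9%, 58.2% and 53.3%, and for CACGTG 8.26%, 13.3% and 6.67%. Promoters of the genes that rose are also richer in G and C, with a median of 63.8% against 57.7% for all and 56.0% for the genes that fell. The part of base composition in these shares was not tested, and a match of letters is a description, not a binding site.

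Genes of glucose entry and of most steps of glycolysis rose. Of 12 glucose and lactate transport genes 4 rose and 0 fell, with a median change of 0.15, against 0.497% rising among the 19938 genes with 1 probe set each and their median of -0.01. Beside Slc16a3 and Slc2a1 these were Slc2a3, the high-affinity neuronal glucose transporter GLUT3, with 1.72 ± 0.23, and Bsg, the chaperone that brings lactate carriers to the membrane, with 0.46 ± 0.07. Slc16a1 (MCT1), which mostly imports lactate, gave 0.16 ± 0.10 and Slc16a7 (MCT2) -0.18 ± 0.09, neither past the threshold.

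Of 22 glycolytic enzyme genes 10 rose and 0 fell, and 17 had a positive change, with a median of 0.44. Among the 19938 genes with 1 probe set each, 0.497% rose, 0.0752% fell and 44.3% had a positive change. In order of the pathway the 10 enzymes were Hk2, which traps glucose (0.91 ± 0.20), Pfkl (1.84 ± 0.19) and Pfkp (1.31 ± 0.21), subunits of the committed step, and Pfkfb3, which makes the activator of that step (1.25 ± 0.19). Below them stood Aldoa (0.79 ± 0.08), Tpi1 (1.48 ± 0.17), Pgk1 (1.00 ± 0.14), Pgam1 (0.72 ± 0.08), Pkm (0.62 ± 0.08) and Ldha, which turns pyruvate into lactate (0.98 ± 0.10). Pfkl lay at 10.94, 11.04 and 11.02 at 3% O2 and at 9.27, 9.18 and 9.02 at 21% O2. Ldha lay at 13.44, 13.46 and 13.46 against 12.53, 12.50 and 12.39, near the top of the array's range in both groups and still without overlap. Other isoforms of the same steps did not pass. Hk1, the constitutive brain hexokinase, gave 0.01 ± 0.08 (0.45 ± 0.13 from a dimmer probe set), and Pfkm 0.08 ± 0.12. Ldhb favours the use of lactate; its value was -0.01 ± 0.11. The brain aldolase gene Aldoc, enriched in astrocytes (0.55 ± 0.19), and the neuron-enriched enolase gene Eno2 (0.34 ± 0.14) did not pass. Their groups did not overlap, as in 17.6% of all probe sets tested. Hk2 lost its call in each of the 6 fits with 1 array left out (adjusted p up to 0.183), and the other 9 kept theirs.

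Glycogen and the route of pyruvate into mitochondria moved less evenly. The share rising among the 19938 genes with 1 probe set each was 0.497%. Pgm1, the phosphoglucomutase between glycolysis and glycogen, rose by 1.37 ± 0.21, from 8.57, 8.77 and 8.51 at 21% O2 to 9.89, 10.06 and 10.01 at 3% O2. Gys1, glycogen synthase, was the 1 of 10 glycogen genes that rose (0.70 ± 0.13), and it lost its call in 5 of 6 fits with 1 array left out. Gyg, the primer of glycogen, gave -0.32 ± 0.09 and did not pass (adjusted p = 0.182). Of 12 genes for pyruvate entry Pdk1 rose and 0 fell, with a median of -0.06. The related kinase gene Pdk3 gave 0.44 ± 0.12 without passing, and Pdha1 and Dlat, subunits of the pyruvate dehydrogenase complex, gave -0.19 ± 0.09 and -0.15 ± 0.09.

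Of 8 genes known to reshape mitochondria in hypoxia 2 rose, with a median of 0.14. Ndufa4l2, a HIF target that dampens complex I, had values of 8.32, 8.51 and 8.20 at 3% O2 and 7.09, 6.90 and 6.87 at 21% O2, a rise of 1.39 ± 0.14. Higd1a, a respiratory supercomplex assembly factor, rose by 1.26 ± 0.22, while its dimmer probe set gave 0.80 ± 0.21 and did not pass. In the same list Cox4i2, the hypoxic isoform of a cytochrome oxidase subunit, gave 0.36 ± 0.13 without passing. Of the 41 respiratory chain and ATP synthase genes listed 0 passed, 13 had a positive change and the median was -0.04. Over the 19938 genes with 1 probe set each, 0.497% rose, 0.0752% fell and 44.3% had a positive change. Sdha and Uqcrb had the smallest p, at -0.16 ± 0.05 and -0.19 ± 0.06 (adjusted p = 0.192 and 0.217). Neither had overlapping groups, as in 17.6% of all probe sets tested. Of 14 mitophagy and hypoxic cell death genes 4 rose and 0 fell, with a median of 0.11. They were Bnip3, its relative Bnip3l (NIX; 0.52 ± 0.06), Fam162a, a HIF target linked to cell death (1.53 ± 0.15), and Ddit4 (REDD1), an inhibitor of mTOR (1.23 ± 0.18). The general autophagy genes Sqstm1 (0.09 ± 0.06), Ulk1 (-0.02 ± 0.05) and Becn1 (-0.08 ± 0.05) did not pass.

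Of 11 HIF subunit and sensor genes 1 passed, Egln3, with a median of 0.08 over the list. The share rising among the 19938 genes with 1 probe set each was 0.497%. Egln1, the main prolyl hydroxylase, gave 0.54 ± 0.13 but did not pass (adjusted p = 0.076), and it passed in 5 of the 16 alternatives. Hif1a messenger RNA lay at 11.19, 11.22 and 11.19 at 3% O2 and at 11.42, 11.42 and 11.43 at 21% O2. Its groups did not overlap, as in 17.6% of all probe sets tested, and the change of -0.22 ± 0.06 did not pass (adjusted p = 0.153). Epas1, which encodes HIF-2 alpha, gave 0.17 ± 0.24, and Arnt -0.04 ± 0.08. The arrays measure messenger RNA, so HIF protein was not analysed here.

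Secreted factors of vessels and stress rose strongly in a few members. Of 20 angiogenic and vasoactive genes 4 rose and 0 fell, with a median of 0.07, against 0.497% rising among the 19938 genes. Adm, the vasodilator peptide adrenomedullin, lay at 9.19, 9.36 and 9.42 against 7.36, 7.65 and 7.30 and rose by 1.89 ± 0.16. Vegfa, the main endothelial growth factor, lay at 11.31, 11.42 and 11.35 against 9.63, 9.53 and 9.58 and rose by 1.78 ± 0.23. Both sets of arrays were separate by over 1. The stanniocalcins, secreted hormones of stressed cells, rose as well, Stc2 by 1.69 ± 0.18 and Stc1 by 0.80 ± 0.13. Epo (0.06 ± 0.06), Edn1 (0.05 ± 0.08) and Angptl4 (0.09 ± 0.08), each a HIF target elsewhere, did not pass.

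Of 23 other textbook HIF targets 4 rose and 0 fell, and 19 had a positive change, with a median of 0.24. Among the 19938 genes 0.497% rose and 44.3% had a positive change. Higd1a and Pfkfb3 belong to this list too, and the others were Jmjd6 (0.70 ± 0.09), a hydroxylase that itself uses oxygen, and the cytokine gene Mif (0.61 ± 0.11). Mif lost its call in 2 of 6 fits with 1 array left out. Bhlhe40 (DEC1), a transcriptional repressor, gave 0.61 ± 0.15 (adjusted p = 0.0726), Ndrg1 0.66 ± 0.23, Ankrd37 0.46 ± 0.14 and Selenbp1 0.77 ± 0.19, none past the threshold. Their groups did not overlap, as in 17.6% of all probe sets tested. The count in this list was 10 when the 6 arrays were fitted alone, 11 with array weights and 3 in the 12 cortex arrays alone. Over all probe sets these fits gave 348, 815 and 89 calls, and the cause was not tested.

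Enzymes that need oxygen as a substrate rose in several families. Beside the following counts, 0.497% of the 19938 genes with 1 probe set each rose. Of 11 collagen hydroxylase and lysyl oxidase genes 3 rose: P4ha1 (1.56 ± 0.16) and P4ha2 (1.10 ± 0.24), the catalytic subunits of collagen prolyl hydroxylase, and the lysyl hydroxylase Plod2 (0.90 ± 0.13). P4ha1 lay at 10.65, 10.84 and 10.84 against 9.34, 9.14 and 9.17, and kept its call throughout, while P4ha2 lost it in each of 6 fits with 1 array left out. Of 23 oxygen-dependent demethylase genes 5 rose and 0 fell, with a median of 0.02. Jmjd6 is also in this list. The histone demethylases Kdm3a (1.04 ± 0.10) and Kdm7a (1.05 ± 0.12) rose most. Kdm3a lay at 10.86, 10.88 and 10.85 against 9.87, 9.79 and 9.79. Kdm4b (0.41 ± 0.09) and the RNA demethylase Alkbh5 (0.41 ± 0.09) rose less and lost their calls in 5 and 6 of 6 fits with 1 array left out. The DNA demethylases Tet1, Tet2 and Tet3 gave 0.25 ± 0.10, 0.10 ± 0.09 and -0.03 ± 0.06, none past the threshold.

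In the endoplasmic reticulum 2 of 7 oxidoreductase and KDEL receptor genes rose, against 0.497% of the 19938 genes with 1 probe set each. Ero1a, the oxidase that drives disulfide formation, rose by 1.14 ± 0.16. Kdelr3, a receptor that returns escaped proteins, rose by 0.89 ± 0.16. Its call was lost in 4 of 6 fits with 1 array left out. Ero1b (-0.09 ± 0.11) and the KDEL receptor gene Kdelr1 (0.05 ± 0.07) did not pass. Of 14 acid and bicarbonate handling genes 2 rose. Car9, the HIF-driven carbonic anhydrase of the cell surface, lay at 7.62, 7.77 and 7.98 against 6.48, 6.37 and 6.40. It rose by 1.37 ± 0.26 (adjusted p = 0.0117) and lost the call in 4 of 6 fits with 1 array left out. Car11, a carbonic anhydrase-related protein without known catalysis, rose by 0.36 ± 0.08, just inside the threshold (adjusted p = 0.0491). It lost the call in each of 6 fits with 1 array left out.

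**Figure D4:**
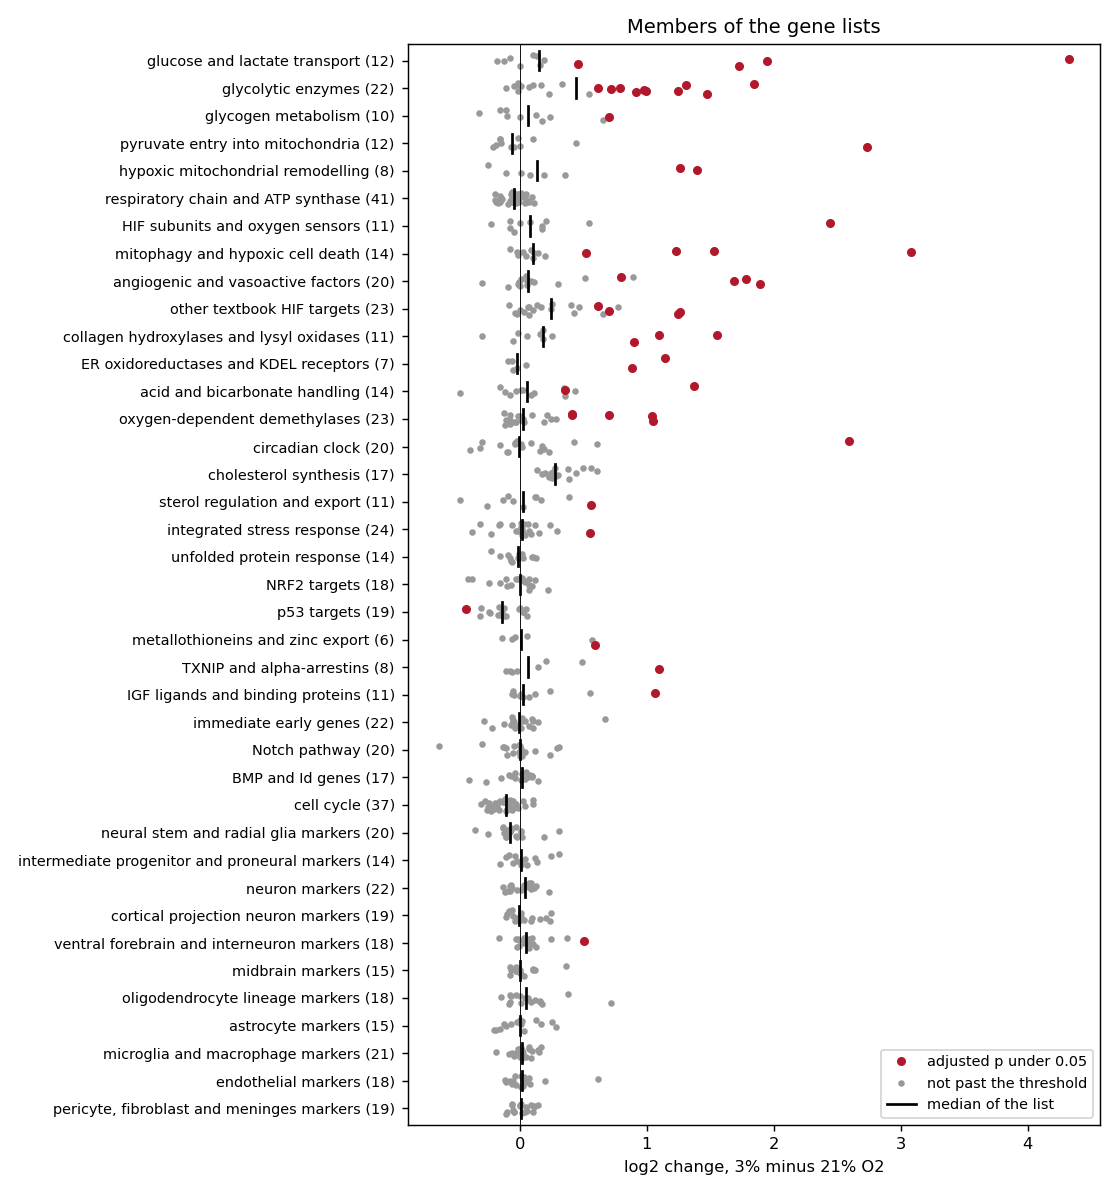
Log2 change at 3% against 21% O2 (horizontal axis) of each measured member of the 39 gene lists, with the number measured in brackets, members past the threshold in red and the list median as a black bar. Red points gather in the upper lists of glucose use and HIF targets, while the 11 marker lists at the bottom hold 1, Npy at 0.51.

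Ciart stood nearly alone among the clock genes, as 1 of 20 that rose, with a list median of -0.01. Among the 19938 genes 0.497% rose. The other probe set of Ciart gave 2.15. Bhlhe40 gave the value above. Arntl (BMAL1), the activator that Ciart opposes, gave -0.30 ± 0.07 (adjusted p = 0.078) and Nr1d2 -0.39 ± 0.14, neither past the threshold. Per2 (0.09 ± 0.07), Clock (-0.15 ± 0.08) and Nr1d1 (-0.09 ± 0.17) did not pass.

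All 17 measured cholesterol synthesis genes had a positive change, from 0.13 to 0.61 with a median of 0.28, and 0 passed. Among the 19938 genes with 1 probe set each, 44.3% had a positive change. The list mean was 10.83, 10.95 and 10.93 at 3% O2 and 10.61, 10.63 and 10.49 at 21% O2. These did not overlap, which also held for the list means of glycogen, cell cycle and oligodendrocyte genes, among others. Msmo1, a methyl oxidase of the pathway that uses oxygen, gave 0.44 ± 0.13 and Hsd17b7 0.39 ± 0.11 (adjusted p = 0.236 and 0.153). Of the 17, 8 passed in the 6 arrays alone, 11 with array weights, 1 after quantile normalization and 0 in every other alternative. The 6 arrays alone and the array weights also raised the calls over all probe sets, from 142 to 348 and 815. Insig1, a sterol-controlled brake on the SREBP factors, rose by 0.56 ± 0.13, and it lost the call in each of 6 fits with 1 array left out. In cortex labelled 48 h the median of the cholesterol list was 0.25, in midbrain 13 d 0.35 and in midbrain 48 h -0.08.

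Lists of other stress programmes held single calls or none. Over the 19938 genes with 1 probe set each, 0.497% rose and 0.0752% fell, so a count of 0 in such short lists is near that share. Of 14 unfolded protein response genes and of 18 NRF2 targets 0 passed. Of 24 integrated stress response genes 1 rose, Shmt2, the mitochondrial serine hydroxymethyltransferase (0.55 ± 0.08), with a median of 0.02. Of 19 p53 targets 5 had a positive change and 1 fell, Ccng1 (cyclin G1), with a median of -0.14. Among the 19938 genes 44.3% had a positive change and the median was -0.01, so this list leaned down. Ccng1 lay at 11.09, 11.13 and 11.22 at 3% O2 and at 11.66, 11.53 and 11.51 at 21% O2. It fell by 0.42 on the log2 scale (SE 0.07, adjusted p = 0.00284) and was the 1 fall that kept its call in every alternative.

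Txnip, an inhibitor of thioredoxin and glucose uptake that rises with sugar supply, lay at 8.86, 9.04 and 9.06 against 7.86, 7.98 and 7.83 and rose by 1.10 ± 0.24. The arrays did not overlap, yet the call was lost in each of 6 fits with 1 array left out (adjusted p up to 0.189). The SD of Txnip was 0.11 and 0.08 in these 2 groups and 0.79 in cortex labelled 48 h at 21% O2. Its paralogue Arrdc4 gave 0.49 ± 0.19. Mt1, a metal-binding metallothionein, rose by 0.60 ± 0.13, and Mt2 gave 0.57 ± 0.20 (adjusted p = 0.368). Igfbp5, a carrier of insulin-like growth factors, rose by 1.06 ± 0.24 and Igfbp2 gave 0.55 ± 0.13 (adjusted p = 0.0642). Mt1 and Igfbp5, too, lost their calls in each of 6 fits with 1 array left out.

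Among cell identity and proliferation genes 1 passed, Npy. With 0.497% rising and 0.0752% falling over the 19938 genes with 1 probe set each, such counts of calls do not set these lists apart. Of 37 cell cycle genes 0 passed, but the list leaned down. A positive change was seen in 4 of them, against 44.3% of the 19938 genes, and the median was -0.11. The list mean was 10.33, 10.24 and 10.33 at 3% O2 and 10.46, 10.43 and 10.36 at 21% O2. Mki67 gave -0.03 ± 0.10 and Cdc20 -0.28 ± 0.11. Of 20 stem and radial glia markers, 14 intermediate progenitor markers, 22 neuron markers and 19 cortical projection neuron markers 0 passed. Sox2 gave -0.02 ± 0.07, Nes -0.25 ± 0.16, Pax6 -0.13 ± 0.13, Tubb3 -0.07 ± 0.20 and Dcx -0.07 ± 0.30. The SEs of Dcx and Tubb3 are wide beside SDs of 0.05 and 0.13 in the 21% O2 arrays. Jag1, a Notch ligand, gave -0.63 ± 0.19 (adjusted p = 0.207), and Id3, a BMP-responsive inhibitor of differentiation, -0.40 ± 0.12. Pdgfra, which marks oligodendrocyte progenitors, lay at 8.90, 8.59 and 8.80 against 8.23, 7.99 and 7.91. Its change of 0.72 ± 0.31 did not pass (adjusted p = 0.591), and its SD was 0.65 in cortex labelled 48 h at 21% O2. Of the 18 oligodendrocyte, 15 astrocyte, 21 microglia, 18 endothelial and 19 pericyte, fibroblast and meninges markers 0 passed, and their list medians lay between 0.00 and 0.05. Npy, a neuropeptide of interneurons, was the 1 of 18 ventral forebrain and interneuron markers that rose (0.51 ± 0.11), and it lost its call in 5 of 6 fits with 1 array left out.

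The 15 falls were small and mostly outside the lists. Dbt, part of the branched-chain ketoacid dehydrogenase, fell by 0.51 (SE 0.11), Gna14, a G protein subunit, by 0.46 (SE 0.09), and Kyat3, a kynurenine aminotransferase, by 0.41 (SE 0.09). Gli3, a zinc finger factor of Hedgehog signalling that patterns the cortex, lay at 9.49, 9.36 and 9.43 at 3% O2 and at 9.85, 9.68 and 9.91 at 21% O2. It fell by 0.39 (SE 0.08) and lost the call in 5 of 6 fits with 1 array left out. Mpp5 and Ctnna1, which hold apical junctions of neuroepithelial cells together, fell by 0.35 each (SE 0.08 and 0.07). Mpp5 was just inside the threshold (adjusted p = 0.0498). Crtc3, a CREB coactivator, fell by 0.32 (SE 0.06), and Sall2, a zinc finger factor, by 0.31 (SE 0.07). Only Ccng1 among the falls kept its call in each fit that left out 1 array.

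Of the 100 genes that rose 53 were in no list. Largest among those, beside Pgm1, were Prelid2, a protein of the PRELI family of mitochondrial lipid carriers (1.54 ± 0.18), Ache, the enzyme that breaks down acetylcholine (1.36 ± 0.19), and A2m, a secreted protease inhibitor (1.22 ± 0.18). Prelid2 lay at 7.45, 7.55 and 7.84 against 5.89, 6.21 and 6.14, and its SE of 0.18 is well under the gap. The following single genes were picked after their values were seen, with no count of their kind. Next in size were Kbtbd11 (1.13 ± 0.11), Grhpr (1.10 ± 0.12), Plekha2 (1.08 ± 0.14) and Smtnl2 (1.07 ± 0.16), which kept their calls in all 16 alternatives. Among genes of mitochondria were Ak4, an adenylate kinase (0.81 ± 0.15), Prelid1 (0.37 ± 0.07), Ndufv3, an accessory subunit of complex I (0.49 ± 0.10), Top1mt (0.33 ± 0.06), Clybl (0.69 ± 0.14) and Dhtkd1 (0.32 ± 0.05). Among those of lipid uptake were the receptors Vldlr (0.75 ± 0.17) and Scarb1 (0.49 ± 0.09) and the fatty acid binding protein Fabp3 (0.47 ± 0.09). Slc37a4, which carries glucose 6-phosphate into the endoplasmic reticulum, rose by 0.79 ± 0.12, and Ppp1r3g, a glycogen-targeting phosphatase subunit, by 0.61 ± 0.13. With 1 array left out, Ndufv3 and Vldlr lost their calls in 6 of 6 fits, Ppp1r3g in 5, Clybl and Top1mt in 4, Ak4, Prelid1, Scarb1 and Drd2 in 3, Fabp3 in 2 and Cck in 1. A second probe set of Fabp3, at 0.42, lost its call in 5. Single genes of receptors and peptides that rose were Galr1 (0.72 ± 0.08), Gipr (0.72 ± 0.12), Cck (0.54 ± 0.10) and Drd2 (0.36 ± 0.07), and the calcium sensor gene Cpne6 gave 0.55 ± 0.08. Galr1 lay at 6.41, 6.53 and 6.55 at 21% O2, close to the low end of the scale, and all 3 arrays at 3% O2 lay above them, the lowest at 6.94.

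The response was compared with that of the other culture groups by testing the difference of each change. Among the 127 rises, 49 also rose in cortex labelled 48 h, where 6.25% of all probe sets rose, 42 in midbrain 48 h (0.701%) and 71 in midbrain 13 d (11.2%). Falls there made up 6.08%, 0.491% and 12.7% of all probe sets, which brings the calls to 12.3%, 1.19% and 23.9%. The median change of the 127 was 0.71 here, where they were chosen, and 0.31, 0.38 and 0.40 in those groups. The difference passed in favour of the cortex 13 d arrays for 38 of the 127 against cortex 48 h (1.91% of all probe sets), 2 against midbrain 48 h (0.00854%) and 45 against midbrain 13 d (6.8%). It passed towards a smaller change here for 3, 0 and 6 of the 127, and for 2.23%, 0.0128% and 6.71% of all probe sets. The 127 were chosen by the same change that enters the difference, which favours larger values here. The shares of all probe sets, which were not chosen so, are therefore no like background for them. Over all probe sets 967 differed from cortex 48 h (4.13%), 5 from midbrain 48 h (0.0214%) and 3162 from midbrain 13 d (13.5%). The midbrain 13 d arrays were run apart from the other 18, so a run effect on the response cannot be told apart from that group.

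The 25 largest rises were chosen for their size in this comparison, which favours larger values here, so the following is a description. By value 18 of them were larger here than in each other group, and 7 were largest in midbrain 13 d. The difference was past the threshold and larger here for 13 of the 25 against cortex 48 h, for 11 against midbrain 13 d, where 1 was smaller here (Pfkp), and for 1 against midbrain 48 h, Ndufa4l2. The count of 5 against midbrain 48 h fell to 0 without 3% O2 replicate 2 and in the 18 arrays run together. For Slc16a3 the difference from cortex 48 h was 3.23 (adjusted p = 0.000353), for Bnip3 2.56 (adjusted p = 0.00223) and for Pdk1 2.08 (adjusted p = 0.00132). The levels showed where those gaps lay. At 21% O2 Slc16a3 was 7.61 ± 0.13 in cortex 13 d and 10.99 ± 0.49 in cortex 48 h, while at 3% O2 the values were 11.93 ± 0.07 and 12.09 ± 0.25 (log2, SD, n = 3). Bnip3 had 8.94 ± 0.19 and 11.88 ± 0.71 at 21% O2, against 12.02 ± 0.13 and 12.41 ± 0.19 at 3% O2. Pdk1 had 7.96 ± 0.15 and 10.50 ± 0.47, against 10.70 ± 0.08 and 11.16 ± 0.18. The 3 genes thus stood near each other at 3% O2 and apart at 21% O2, where the arrays labelled 13 d were the lower ones. In midbrain 48 h their levels at 21% O2 were 7.64 ± 0.17, 8.91 ± 0.28 and 7.44 ± 0.05.

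**Figure D5:**
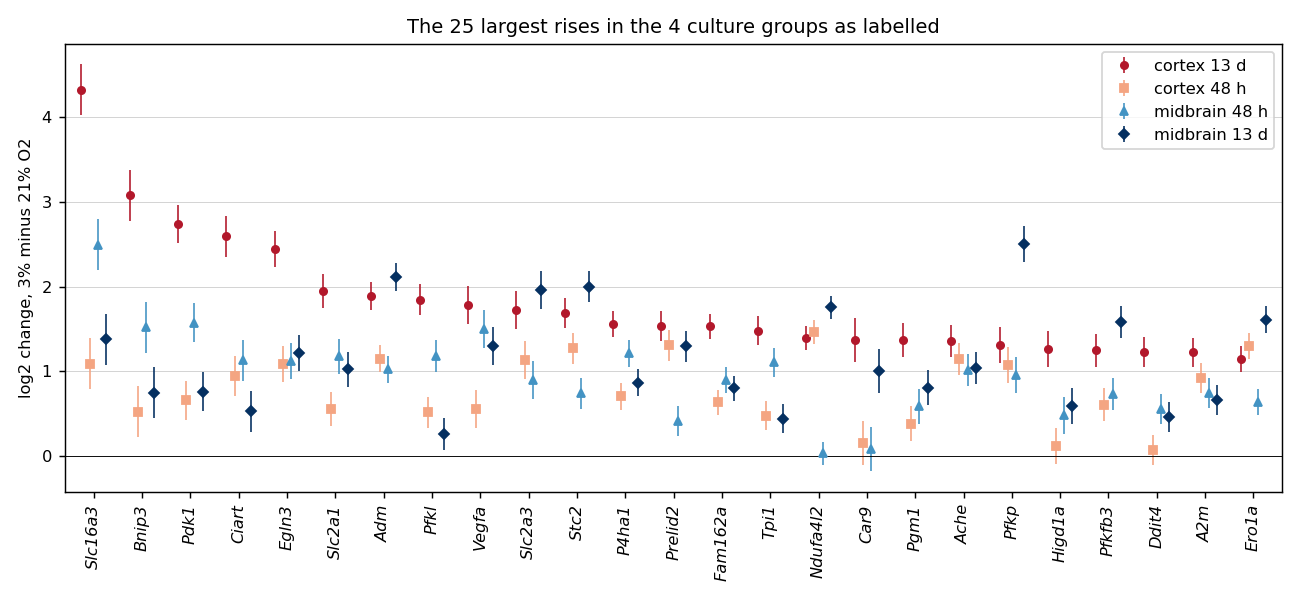
Log2 change at 3% against 21% O2 (vertical axis) of the 25 largest rises in cortex labelled 13 d and in the other 3 culture groups, with the SE of limma's fit as bars. The red points of cortex 13 d lie highest for 18 of the genes, from 4.32 for Slc16a3, and Pfkp has its largest change in midbrain 13 d (2.50).

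Some genes ran the other way elsewhere. Txnip rose here by 1.10 but changed by -0.86 ± 0.24 in cortex labelled 48 h and -1.29 ± 0.24 in midbrain 13 d, and the differences of 1.95 and 2.39 passed (adjusted p = 0.0032 and 9.94e-05). Ccng1 fell here and gave 0.47 in midbrain 13 d, with a difference of -0.89 (adjusted p = 7.18e-06). Pfkp rose more in midbrain 13 d, with a difference of -1.19 (adjusted p = 0.0108), and Stc1 rose more in both cortex 48 h (-0.67, adjusted p = 0.0398) and midbrain 13 d (-0.77, adjusted p = 0.00603). Of the 24 integrated stress response genes, 15 rose in cortex 48 h and 18 in midbrain 13 d, and the response here was smaller by the test of the difference for 12 and 16 of them. Over all probe sets 6.25% rose in cortex 48 h and 11.2% in midbrain 13 d. The difference passed towards lower values here for 2.23% and 6.71% of all probe sets. Of the 19 p53 targets, 11 rose in midbrain 13 d, and for 12 the difference passed towards lower values here. All comparisons with midbrain 13 d cross the array runs.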

How the data were processed

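Total RNA of each culture was hybridised, with biotin label, to a whole-transcript mouse gene array. The authors deposited log2 values that the labels call normalized, by a method not given in the sources used here. Any array-wide shift removed by it cannot be seen. The number of arrays limits the precision. Symbols came from the platform annotation (21789 probe sets with 1 symbol, 1621 with several, 5446 unnamed here), and 21698 matched RefSeq GRCm38.p6 by gene number. Limma 3.58.1 in R 4.3.3 fitted 8 group means to the 24 arrays (lmFit and eBayes, 16 residual degrees of freedom). P-values were two-sided and adjusted by Benjamini-Hochberg over the 23410 probe sets, at a threshold of 0.05. The members and the 39 lists were chosen with earlier results of these data known. Lists are described by counts and medians over the brightest probe set of each gene. Named were the 25 largest rises, the 15 largest falls (clone-type symbols left out), list members and a panel of hypoxia and cell type genes, besides those said to be picked later. Replicates correlated at 0.9974 to 0.9986. On simulated arrays for the cortex 13 d comparison the fit recovered 96% of changes of 0.5 and 100% of changes of 1 among 23410 probe sets, with 14 false calls. The simulated noise was independent, with the same SD in every array for a probe set. In the data the array weights ran from 0.225 to 5.05, so these shares do not give the recovery there. Alternatives changed the probe sets tested, the scaling (quantile or median), the variance model, the arrays fitted, the weights, and the block by replicate number, and left out each of the 6 arrays.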

Additional observations from a re-analysis of the deposited data

Results flagged for a closer look

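The oxygen response of cortex labelled 13 d differed from that of another group by the test of the difference itself in 3 comparisons. It differed for 967 probe sets from cortex labelled 48 h, 446 of them more positive and 521 more negative in cortex 13 d. It differed for 3162 probe sets from midbrain 13 d, 1592 more positive and 1570 more negative, across 2 array runs. It differed for 5 probe sets from midbrain 48 h. More positive in cortex 13 d were Ndufa4l2 (1.39 against 0.03 in midbrain 48 h) and Kbtbd11 (1.13 against 0.04). More negative were the neuropeptide gene Gal (0.09 against 0.65), the sodium channel gene Scn9a (0.21 against 1.24) and the taste receptor gene Tas2r108 (-0.03 against 0.34). None of the 5 passed without 3% O2 replicate 2, in the 18 arrays run together or with the replicate block. Tas2r108 lies near the low end of the scale, at a mean of 5.80 over the 24 arrays.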

How the results depend on the processing

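No call changed sign, and of the 65 named genes past the threshold 37 kept their call in every alternative, 36 in all 16 and Prelid2, too dim for one, in 15. Counts of calls moved more than single values, and the cause was not tested. The 142 calls (127 higher, 15 lower) became 348 (274 and 74) with the 6 arrays alone, 89 (79 and 10) with the 12 cortex arrays and 81 (77 and 4) with the 18 arrays of 1 run. Array weights gave 815 (464 and 351), which lowers the share of rises from 89.4% to 56.9%, and with the 6 arrays alone it was 78.7%. Falls numbered 30 after quantile normalization and 25 after median centring. Leaving out 1 array gave 68 to 110 calls, 66 to 106 higher and 2 to 10 lower. The 967 differences from cortex 48 h became 377 in the 12 cortex arrays, 572 in the 18 arrays, 4323 with weights and 524 to 837 without 1 array. The 5 differences from midbrain 48 h became 12 over all probe sets, 2 over brighter ones, 13 (quantile), 9 (median), 10 (variance trend), 0 (18 arrays), 28 (weights) and 0 to 6 without 1 array. The 3162 from midbrain 13 d became 6745 with weights.

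The replicate numbers gave no steady pairing of the arrays: deviations of same-numbered arrays correlated at -0.01, 0.23 and -0.37. Those of arrays with unlike numbers correlated at -0.37 to 0.33, and a pairing in another order was not tested. With the replicate block there were 170 calls (142 higher, 28 lower), 1596 differences from cortex 48 h and 0 from midbrain 48 h. With the 6 arrays alone and the block, chosen after seeing the data, there were 220 (192 and 28).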
